A study of Homo sapiens with 6 samples.

Results

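The IGF2 axis was followed through 10 genes in RNA-seq libraries of an adrenocortical carcinoma (ACC) cell line. The genes are the ligand IGF2, its imprinted neighbour H19, the receptors IGF1R, INSR and IGF2R, the binding proteins IGFBP2, IGFBP4 and IGFBP5, and the adaptors GRB10 and IRS1. They were taken by gene name, and all 10 are among the 57341 named genes of the count table. The libraries came from 3 replicates of parental H295R cells, a human ACC cell line that makes steroids, and 3 replicates of H295R-PM-Ptc+ cells. The latter are H295R cells sorted with an antibody for surface Ptch1, the Hedgehog receptor, and amplified after the sort, so they are a population derived from the same line and not an engineered clone. Neither group was treated. Both were grown in DMEM/F12 with NuSerum and an ITS supplement, which contains insulin, a ligand of INSR. Whether the replicates were separate cultures is not given in the sources used here, so the p-values measure only the spread between these libraries.

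The libraries held 23264403 to 25813247 fragments assigned to genes. PTCH1, the gene of the receptor used for the sort, held 441, 559 and 579 counts in libraries labelled H295R and 248, 326 and 319 in those labelled H295R-PM-Ptc+. Libraries labelled as the sorted cells were thus the lower (log2 fold change -0.81, adjusted p = 0.0207, edgeR). The group names of the count table are exchanged relative to the normalized columns of the same libraries that accompany the study, for 6 of 6 columns. PTCH1 RNA, lower in all 3 pairs of replicates and without overlap in libraries labelled as sorted for its protein, runs against the deposited names. Every difference below is therefore given as libraries labelled H295R-PM-Ptc+ against libraries labelled H295R, and its direction rests on those labels. With the names exchanged, the sign of every difference between the groups would turn, those of GRB10 and H19 included. All 8 adrenal cortex markers, among them NR5A1 and CYP11A1, had enough counts to be tested, with summed levels of 880 to 1160 and 958 to 1216 CPM (counts per fixed library size) in libraries labelled H295R and H295R-PM-Ptc+. They did not move together, as CYP21A2 was higher in libraries with the second label (0.88, adjusted p = 0.00670, edgeR), while with the replicate as a block STAR was also higher (0.41, adjusted p = 3.91e-06) and CYP11A1 lower (-0.24, adjusted p = 0.00100). Of the markers of other cell types, the adrenal medulla markers PNMT and DBH, the leukocyte marker PTPRC and the fibroblast marker LUM held no counts in any library. CHGA, a further medulla marker, held 18, 20 and 20 counts in libraries labelled H295R and 39, 25 and 22 in those labelled H295R-PM-Ptc+, without overlap (log2 fold change 0.57, adjusted p = 0.305, edgeR). The summed leukocyte list of 4 genes lay at 0.809 to 1.34 and 1.68 to 2.00 CPM, the 6 fibroblast genes at 8.19 to 9.38 and 9.27 to 11.2, and the 4 endothelial genes at 0.0394 to 0.251 and 0.121 to 0.274. The part of these low levels in the differences below was not tested.

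IGF2 is a fetal growth factor that acts through the receptor tyrosine kinase IGF1R and through INSR, while IGF2R binds it and carries it to lysosomes without a kinase signal. Secreted IGF binding proteins hold the ligand outside the cell, IRS1 links the active receptors to PI3K signalling, and GRB10 binds the same receptors and restrains them. IGF2 and H19 lie side by side in an imprinted domain where IGF2 is normally read from the paternal and H19 from the maternal copy, and high IGF2 RNA is a well known feature of ACC.

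Of the 10 genes, 9 had enough counts to be tested, and 2 of them rose in libraries labelled H295R-PM-Ptc+ at an adjusted p under 0.05. These were GRB10, by 2.81-fold, and H19, by 1.73-fold. Over all 16710 genes tested, 3.73% passed in either direction, 2.42% higher and 1.32% lower, and these last shares trade places if the names are exchanged. IGF2 itself stood 1.25-fold higher without overlap between the groups and had an adjusted p of 0.129. Of the 9 genes, 8 had a positive and INSR a negative log2 fold change, with a median of 0.32 against 0.00094 over all genes tested. In bulk RNA, fewer cells expressing a gene and less RNA per cell cannot be told apart.

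Same-numbered replicates of the groups varied together, and with the replicate number as a block 7 of the 9 tested genes passed, all of them higher in libraries labelled H295R-PM-Ptc+. With that block 22.5% of all genes tested passed. The genes added by the block were IGF2, IGF1R, IGF2R, IGFBP2 and IRS1, while INSR and IGFBP5 did not pass. Replicate 1 of both groups stood apart from replicates 2 and 3. With replicates 2 and 3 alone, the same 7 genes passed, where 12.0% of 16756 genes did. Each of the 9 tested genes moved in one direction in all 3 same-numbered pairs, as did 52.6% of all genes tested. Groups without any overlap were seen for IGF2, H19, GRB10 and IRS1, each with all 3 libraries labelled H295R-PM-Ptc+ above the other 3, against 23.5% of all genes tested that did not overlap in either direction.

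**Figure D1:**
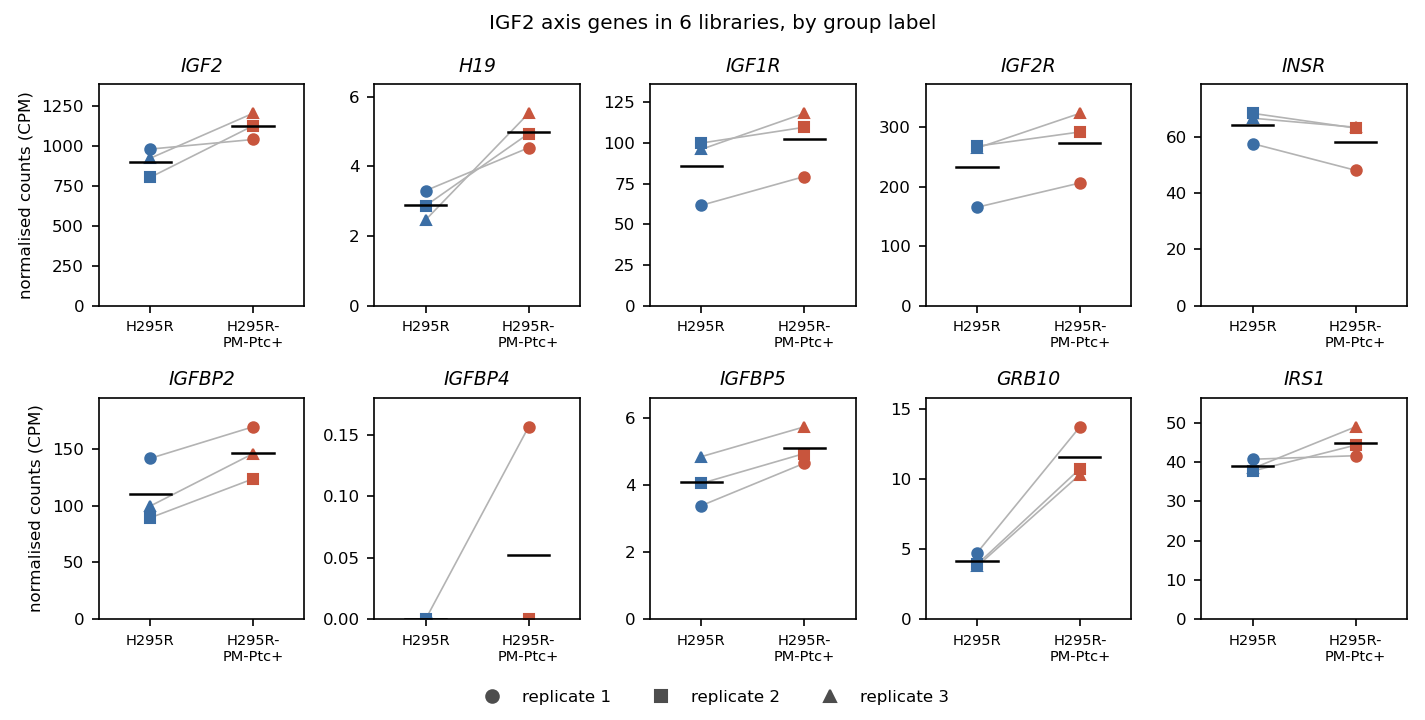
Normalised counts (CPM, linear axes from 0) of the 10 genes in each library, with a panel per gene and a marker shape per replicate. Grey lines join same-numbered replicates, and black bars give the mean of 3 libraries per group label. GRB10, H19, IGF2 and IRS1 show no overlap between the groups, while in IGF1R and IGF2R replicate 1 lies lowest and in IGFBP2 highest in both groups.

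**Figure D2:**
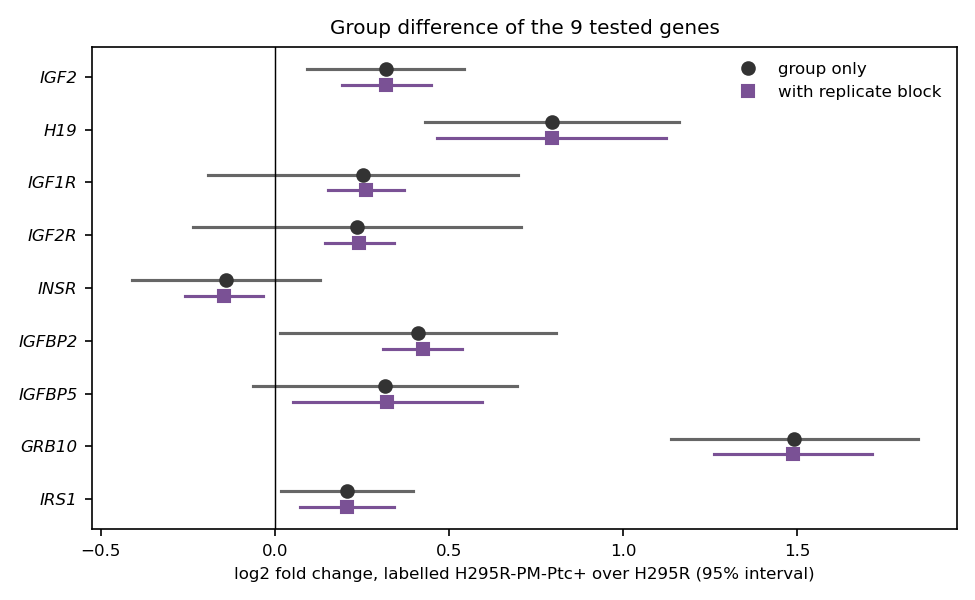
Log2 fold changes of the 9 tested genes with their 95% intervals, labelled H295R-PM-Ptc+ over H295R, from edgeR with group as the only term (circles) and with the replicate block (squares). GRB10 (1.49) and H19 (0.79) lie farthest from 0, and the block narrows the intervals of IGF1R, IGF2R and IGFBP2 most while their estimates hardly move.

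IGF2 lies on the minus strand of chromosome 11 from 2129112 to 2149603 (hg38). It held 23470, 20437 and 22856 counts in the 3 libraries labelled H295R, and 26653, 28055 and 27941 in those labelled H295R-PM-Ptc+. Every library of the latter group was above every library of the former. The levels were 904 ± 90.6 and 1126 ± 82.2 CPM (SD, n = 3 each). The log2 fold change was 0.32 (standard error 0.099, 95% interval 0.09 to 0.54), with an adjusted p in edgeR of 0.129, or of 0.00115 with the replicate block. The pair of replicate 1 differed least, by 0.09 on the log2 scale, against 0.49 and 0.38 in the pairs of replicates 2 and 3. With replicates 2 and 3 alone the log2 fold change was 0.43 (adjusted p = 0.00268, edgeR).

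On the scale of RPKM, the fragments per kilobase of exon scaled to library size, IGF2 was the most abundant of the 10 genes at 115 to 173 and ranked 210 of the 16710 genes tested, while by CPM it ranked 59. The RPKM understates it, since 26.3% of its 6979 exon bases are shared on the same strand with INS-IGF2 and AC132217.4. Fragments that fall in shared exons alone are assigned to neither gene with the counting options that the study names, and both of these genes were at 0 in all 6 libraries. Over the 5146 unshared bases the level of IGF2 was 191, 156 and 180 RPKM in libraries labelled H295R and 203, 219 and 235 in those labelled H295R-PM-Ptc+, again without overlap. Other ligands were low by comparison. INS was at 0 in every library, and IGF1, which signals through IGF1R too, had means of 27.3 and 27.4 CPM and a log2 fold change of 0.0018 (adjusted p = 0.994, edgeR).

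H19 is a noncoding RNA on the minus strand of chromosome 11 from 1995176 to 2001470, and it is also the precursor of a microRNA. Its 3 libraries labelled H295R held 79, 73 and 61 counts, and its 3 labelled H295R-PM-Ptc+ held 116, 123 and 128. The lowest of the second group was well above the highest of the first. At 2.88 ± 0.419 and 5.00 ± 0.498 CPM (SD, n = 3 each) it rose by 0.79 on the log2 scale (standard error 0.16, 95% interval 0.43 to 1.16, adjusted p = 0.0317, edgeR). The pairs differed by 0.46, 0.78 and 1.16 in the order of replicates 1, 2 and 3. This call was lost when any library of replicate 2 or 3 was left out, with adjusted p-values of 0.107 to 0.144, and the replicate block gave 0.00152.

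The H19 counts are a lower bound on its RNA. All 2812 of its exon bases occur again, with 0 mismatches and 0 gaps, on the unlocalised scaffold KI270721.1 of hg38, which the count table does not list under H19. Fragments from H19 exons fit both places equally well, and only those placed on chromosome 11 could be counted for it. None of the other 9 genes had a match of 75 bases at 97% identity on the 430 sequences of the build outside the main chromosomes. The 113 bases of the microRNA gene MIR675 lie inside an H19 exon, and the row of MIR675 also covers the scaffold. That row held 20, 17 and 21 counts in libraries labelled H295R and 26, 24 and 29 in those labelled H295R-PM-Ptc+, which did not overlap (log2 fold change 0.45, adjusted p = 0.374, edgeR). These fragments are pieces of long RNA and do not measure the mature microRNAs. The mature forms that H19 encodes, from RefSeq, are shown here with bases 2 to 8, the seed that pairs with targets, in capitals, and their seeds differ.
hsa-miR-675-5p: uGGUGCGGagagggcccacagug
hsa-miR-675-3p: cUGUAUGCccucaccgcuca

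Per kilobase, IGF2 exceeded H19 by 120-, 113- and 151-fold in libraries labelled H295R, and by 92.6-, 91.9- and 88.0-fold in those labelled H295R-PM-Ptc+. The groups did not overlap, and the log2 ratio was 6.99 ± 0.222 against 6.5 ± 0.0400 (SD, n = 3 each), a difference of -0.48. An exact two-sided permutation test gave p = 0.1, the smallest that 3 libraries against 3 allow. As both genes are undercounted for the reasons above, the ratio compares counts assigned to the genes and not numbers of transcripts.

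GRB10, which lies on the minus strand of chromosome 7 from 50590063 to 50793462, showed the largest difference of the 9 tested genes. Its counts were 113, 99 and 93 in libraries labelled H295R and 351, 267 and 239 in those labelled H295R-PM-Ptc+. Even the lowest of the latter was well above the highest of the former. The levels were 4.13 ± 0.524 and 11.6 ± 1.86 CPM (SD, n = 3 each), and the fitted difference was 1.49 on the log2 scale (standard error 0.16, 95% interval 1.14 to 1.85, adjusted p = 0.00132, edgeR). The 3 pairs differed by 1.54, 1.46 and 1.46 on the log2 scale. GRB10 passed in all 13 alternative fits, with a log2 fold change of 1.34 to 1.60 when libraries were left out. Its level was nevertheless low, at 0.378 to 1.38 RPKM over the 6 libraries.

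GRB10 and H19, the genes called higher in libraries labelled H295R-PM-Ptc+, are both known as imprinted genes. The promoters at their annotated starts are shown to compare their CG content, CG being the pair of bases where DNA is methylated. Each sequence runs from 250 bases before to 50 bases after a RefSeq start (GRCh38.p14), with every CG in capitals. The count of CG is the same on both strands. These sequences describe the places, and neither methylation nor the choice of start was measured.
H19 (chr11:2001217-2001516, minus strand): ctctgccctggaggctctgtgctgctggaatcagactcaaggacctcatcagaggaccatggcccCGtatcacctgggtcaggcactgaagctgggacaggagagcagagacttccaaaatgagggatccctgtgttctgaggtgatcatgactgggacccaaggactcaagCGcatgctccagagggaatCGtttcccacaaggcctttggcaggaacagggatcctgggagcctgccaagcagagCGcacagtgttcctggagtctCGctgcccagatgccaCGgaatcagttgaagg
GRB10 (chr7:50793404-50793703, minus strand): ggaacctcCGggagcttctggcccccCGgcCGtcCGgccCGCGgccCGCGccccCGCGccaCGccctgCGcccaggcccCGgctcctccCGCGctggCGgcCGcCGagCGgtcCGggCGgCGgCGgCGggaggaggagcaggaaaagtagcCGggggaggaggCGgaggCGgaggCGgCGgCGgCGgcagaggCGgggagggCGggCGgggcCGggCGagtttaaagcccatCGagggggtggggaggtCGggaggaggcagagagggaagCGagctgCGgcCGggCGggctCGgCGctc
The GRB10 window held 44 CG pairs, a number reached by 4.19% of the 35116 promoter windows of that length, and the H19 window held 6, reached by 66.3%. The median of all windows was 14. GRB10 has further RefSeq starts, with 49, 24, 3 and 4 CG pairs. Of the 10 genes, 9 were matched in the promoter table, all but IGF2.

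IRS1, the docking protein of the active receptors, is on the minus strand of chromosome 2 from 226731317 to 226799759. It held 973, 958 and 949 counts in libraries labelled H295R and 1064, 1102 and 1134 in those labelled H295R-PM-Ptc+. The groups did not overlap, but they were close. The levels of 38.9 ± 1.58 and 45.0 ± 3.72 CPM (SD, n = 3 each) gave a log2 fold change of 0.21 (95% interval 0.02 to 0.40) and an adjusted p in edgeR of 0.245, or of 0.0288 with the replicate block. Leaving out replicate 3 of those labelled H295R-PM-Ptc+ gave 0.13. IRS2, its relative, was more abundant by CPM and gave nearly the same mean in both groups, 251 and 254 CPM (log2 fold change 0.01, adjusted p = 0.960, edgeR).

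The receptors overlapped between the groups. IGF1R, on chromosome 15 from 98648971 to 98964530, held 1473, 2538 and 2375 counts in libraries labelled H295R and 2027, 2725 and 2736 in those labelled H295R-PM-Ptc+. Replicate 1 was the lowest of both groups. The means of 85.9 ± 21.1 and 102 ± 20.4 CPM (SD, n = 3 each) gave a log2 fold change of 0.25 (95% interval -0.19 to 0.70, adjusted p = 0.581, edgeR). In each pair the library labelled H295R-PM-Ptc+ was the higher, by 0.36, 0.13 and 0.30, and the replicate block gave an adjusted p of 0.00160 at a log2 fold change of 0.26. The unblocked estimate rests on which replicates are set against each other, being 0.061 when the library labelled H295R replicate 1 is left out. Leaving out replicate 3 or replicate 1 of those labelled H295R-PM-Ptc+ gave 0.13 and 0.40.

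IGF2R, the clearance receptor, on chromosome 6 from 159969099 to 160113507, followed IGF1R closely. Its counts were 3955, 6818 and 6556 in libraries labelled H295R and 5276, 7269 and 7495 in those labelled H295R-PM-Ptc+, with replicate 1 again lowest in both groups. The log2 fold change of 0.23 (95% interval -0.24 to 0.70) had an adjusted p in edgeR of 0.641, or of 0.00136 with the replicate block. Its log2 fold change was 0.038 when the library labelled H295R replicate 1 was left out. It was 0.090 and 0.40 when replicate 3 or replicate 1 of those labelled H295R-PM-Ptc+ was. In both receptors the step between replicates was larger than the step between groups. Replicate 1 lay below the mean of the other two by a log2 difference of -0.67 and -0.52 for IGF1R and of -0.69 and -0.58 for IGF2R, in libraries labelled H295R and H295R-PM-Ptc+ in that order.

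INSR, on the minus strand of chromosome 19 from 7112255 to 7294034, was the one gene of the 9 with a negative value. It held 1373, 1733 and 1644 counts in libraries labelled H295R and 1227, 1566 and 1465 in those labelled H295R-PM-Ptc+. The groups overlapped at 64.1 ± 5.78 and 58.1 ± 8.74 CPM (SD, n = 3 each). The log2 fold change was -0.14 (95% interval -0.41 to 0.13), and neither fit passed, with adjusted p-values of 0.621 without and 0.0582 with the replicate block in edgeR. In all 3 pairs the library labelled H295R-PM-Ptc+ was the lower, by -0.26, -0.12 and -0.07. Leaving out replicate 1 of the group labelled H295R-PM-Ptc+ gave -0.028, and leaving out its replicate 3 or replicate 1 of the group labelled H295R gave -0.22.

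Per kilobase, the ratio of IGF1R to INSR was 0.830, 1.13 and 1.12 in libraries labelled H295R and 1.28, 1.35 and 1.44 in those labelled H295R-PM-Ptc+. Both receptor RNAs were thus of similar level, and the ratio did not overlap between the groups even though neither receptor alone was apart. The log2 ratio differed by 0.41 (0.02 ± 0.254 and 0.44 ± 0.0888, SD, n = 3 each). The exact two-sided permutation test gave p = 0.1, the smallest it can give here. Without the library labelled H295R replicate 1 the log2 difference was 0.27, and that library held the one ratio below 1.

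IGFBP2 had the highest mean RPKM of IGFBP1 to IGFBP6, and lies on chromosome 2 from 216632828 to 216664436. It held 3387, 2268 and 2463 counts in libraries labelled H295R and 4336, 3075 and 3379 in those labelled H295R-PM-Ptc+. Here replicate 1 was the highest of both groups, opposite to IGF1R and IGF2R. The levels of 110 ± 27.8 and 146 ± 23 CPM (SD, n = 3 each) overlapped, and the log2 fold change was 0.41 (95% interval 0.01 to 0.81, adjusted p = 0.271, edgeR). The pairs differed by 0.26, 0.47 and 0.55, and the adjusted p was 3.22e-05 with the replicate block and 0.0218 without the library labelled H295R replicate 1 (log2 fold change 0.63).

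IGFBP5 is the neighbour of IGFBP2 on chromosome 2, from 216672105 to 216695525 on the other strand. It was far lower, with 81, 103 and 120 counts in libraries labelled H295R and 119, 123 and 133 in those labelled H295R-PM-Ptc+. The overlap was between 1 library of each group, H295R replicate 3 (4.85 CPM) and H295R-PM-Ptc+ replicate 1 (4.66 CPM). The log2 fold change of 0.32 (95% interval -0.06 to 0.69) had adjusted p-values of 0.386 without and 0.0850 with the replicate block in edgeR. Leaving out replicate 1 or replicate 3 of those labelled H295R gave 0.20 and 0.44. IGFBP4, on chromosome 17 from 40443461 to 40457731, had 4 counts in the library labelled H295R-PM-Ptc+ replicate 1 and 0 in the other 5, and was not tested. A count of 0 allows up to 3 counts, or 0.116 to 0.129 CPM by library, and this covers counting error only.

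IGFBP3, the main carrier of IGFs in blood and not one of the 10 genes, held 698, 528 and 525 counts in libraries labelled H295R and 1112, 778 and 709 in those labelled H295R-PM-Ptc+, which did not overlap. Its log2 fold change was 0.57 (95% interval 0.18 to 0.95), and its adjusted p in edgeR was 0.115, or 6.55e-06 with the replicate block. IGFBP7, which binds IGFs weakly, differed by 0.30 on the log2 scale (adjusted p = 0.269 without and 0.00172 with the block), and IGFBP6 by 0.37 (adjusted p = 0.550, edgeR). By RPKM, IGFBP7 (mean 25.3, range 19.7 to 30.3) was close to IGFBP2 and above it in replicate 2 of both groups. IGFBP1 was at 0 in every library.

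The summed level of IGFBP1 to IGFBP6 was 37.3, 24.5 and 26.9 RPKM in libraries labelled H295R and 47.0, 34.2 and 38.9 in those labelled H295R-PM-Ptc+. IGFBP2 made up 75.8 to 79.6% of this sum and IGFBP3 17.1 to 20.3% in the 6 libraries, with ranges that overlapped between the groups. The log2 sum differed by 0.45, and the groups overlapped in 1 library each, H295R replicate 1 and H295R-PM-Ptc+ replicate 2 (exact two-sided permutation test, p = 0.2). With IGFBP7 added, the log2 difference was 0.39.

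**Figure D3:**
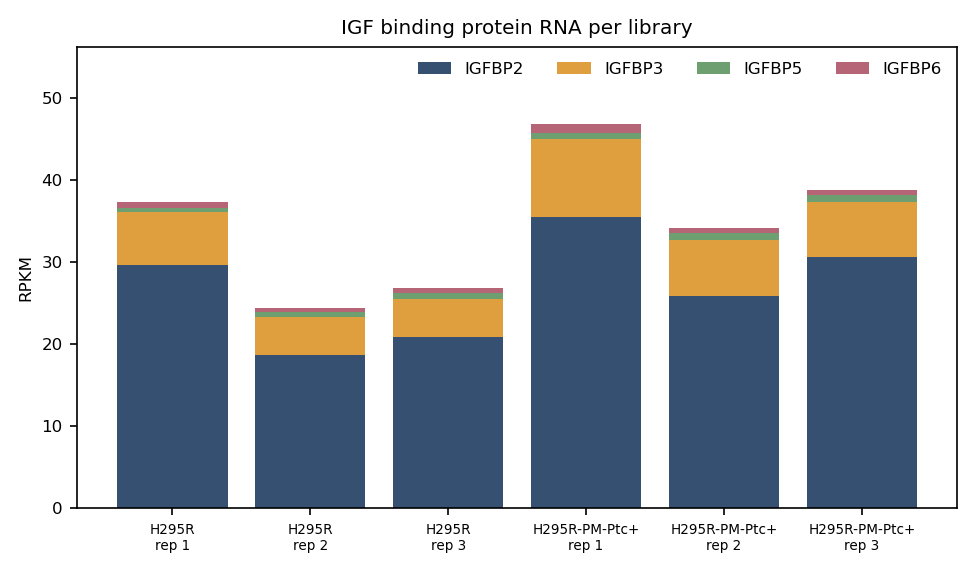
Stacked RPKM of the IGF binding proteins in each of the 6 libraries, by group label and replicate, on a linear axis from 0. IGFBP2 fills most of every bar (75.8 to 79.6% of the IGFBP1 to IGFBP6 sum), and replicate 1 has the tallest bar of both groups.

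Ordered by mean RPKM over the 6 libraries, IGF2 (145) stood apart from IGFBP2 (26.9) and IGF2R (25.5), which exchanged places between libraries, IGFBP2 being higher in 2 of 6. IGF1R (6.97) and INSR (5.84) also overlapped, with IGF1R above in 5 of 6. IRS1 (4.22) followed, below INSR in each library though their ranges overlapped, and then H19 (1.4), above GRB10 (0.791) in each library with overlapping ranges. GRB10 and IGFBP5 (0.715) were not separated, GRB10 being higher in 3 of 6 libraries, and these were the 3 labelled H295R-PM-Ptc+. IGFBP4 (0.0119) was last. The ligand was thus above its binding proteins and receptors by RPKM in all 6 libraries.

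**Figure D4:**
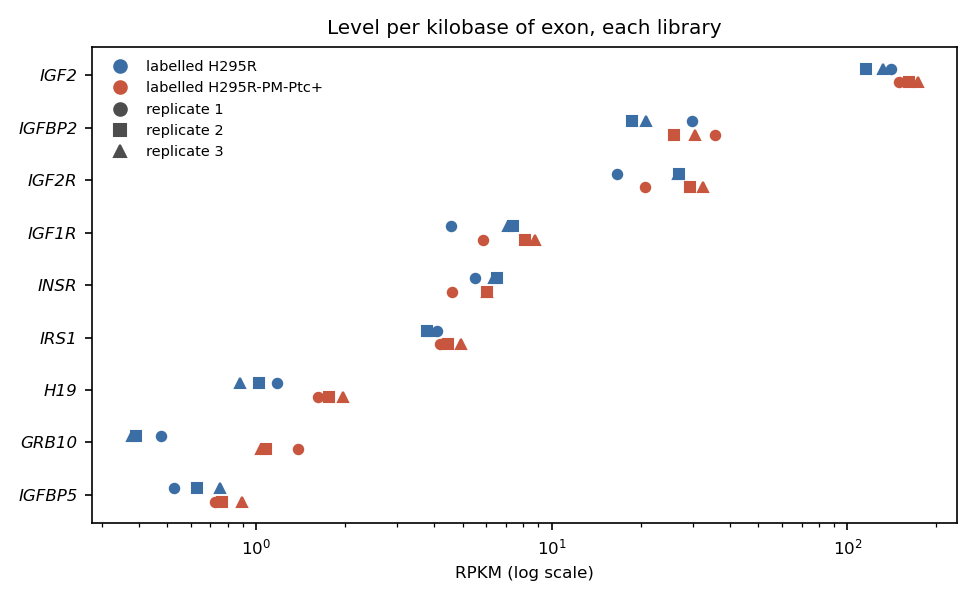
RPKM of the 9 tested genes (log axis) in each library, ordered by the mean over 6 libraries, with colour for the group label. IGFBP4 is left out. IGF2 lies at 115 to 173, apart from every other gene, and GRB10 shows the widest gap between its groups.

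Other genes of the pathway were taken from 4 lists. Of 14 other ligands, binding proteins and related genes, 7 could be tested, 6 with a positive and 1 with a negative log2 fold change, and none passed in edgeR, though IGFBP3 and IGFBP7 did with the replicate block. At an unadjusted p under 0.05 there were 2 of these 7, beside 17.3% of all genes tested, and DESeq2 called 1, beside 4.56% of all genes it tested. The 2 called with the block are 28.6% of the 7, beside 22.5% of all genes. Their median log2 fold change was 0.37, against 0.00094 over all genes tested.

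Of 33 adaptors and kinases downstream of the receptors, 32 were tested, and 1 was called, which is 3.12% of the list beside 3.73% of all genes. This was GRB7, a relative of GRB10, with 4, 7 and 6 counts in libraries labelled H295R and 52, 35 and 28 in those labelled H295R-PM-Ptc+. The fitted difference was 2.73 on the log2 scale (standard error 0.34, adjusted p = 0.00291, edgeR), from 0.229 ± 0.0555 to 1.55 ± 0.431 CPM (SD, n = 3 each). GRB7 passed the filter on low counts only through the group where it is high, so it had to differ to be tested, and it was left untested where 10 counts were required in every library. The median of the list was 0.04, and the replicate block added AKT2 (0.32, adjusted p = 9.73e-05), RHEB (0.20, 0.0165) and MTOR (0.13, 0.0489), which are named here after their values were seen. With replicates 2 and 3 alone, RHEB was at 0.10 (adjusted p = 0.263) and MTOR at 0.15 (adjusted p = 0.0833, edgeR), so both calls were lost. AKT2 kept its call, at 0.37 (adjusted p = 0.00486, edgeR). The 4 list genes called with the block are 12.5% of the list, beside 22.5% of all genes.

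Of 10 regulators of IGF2 RNA or its imprint, 6 were tested. PLAGL1, an imprinted zinc finger gene that was higher in libraries labelled H295R-PM-Ptc+, was the 1 called. This is 16.7% of so short a list, beside 3.73% of all genes, and with the block it was also 1 of 6, beside 22.5%. Its levels were 229 ± 4.27 and 294 ± 7.94 CPM (SD, n = 3 each), which differed by 0.36 on the log2 scale (adjusted p = 0.0265, edgeR). The median of these 6 genes was -0.02. PLAGL1 lost its call when any library other than H295R replicate 1 was left out, with adjusted p-values of 0.0505 to 0.146 (edgeR). Its log2 fold change in those fits was 0.33 to 0.37.

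Around IGF2, 69 other genes within 2000000 bases were tested, of which 41 had a positive log2 fold change and 1, H19, passed, and their median was 0.09. Of all genes tested, 50.2% had a positive value and 3.73% passed. A difference at least as large as that of IGF2 in absolute size was seen in 16 of them, while 1 of the 68 around H19 matched H19. None of 19 further genes of the imprinted domain and its border, 11 of them tested, passed in edgeR, against 3 at an unadjusted p under 0.05 (17.3% of all genes tested). With the replicate block 3 did, again named after their values were seen, and this share of 27.3% is near the 22.5% of all genes. These were CTSD, a lysosomal protease (0.35, adjusted p = 3.53e-05), CDKN1C, a maternally expressed inhibitor of the cell cycle (-0.76, 0.0457), and KCNQ1OT1, a paternally expressed noncoding RNA (-0.59, 0.0357). CDKN1C held few counts, 33, 47 and 36 in libraries labelled H295R and 33, 18 and 17 in those labelled H295R-PM-Ptc+. Without the block its adjusted p in edgeR was 0.191. The CDKN1C pairs differed by -0.10, -1.35 and -0.99, and with replicates 2 and 3 alone it stood at -1.18 (adjusted p = 0.0225, edgeR). The KCNQ1OT1 pairs differed by -0.80, -1.01 and 0.08, the last in the other direction. With replicates 2 and 3 alone KCNQ1OT1 stood at -0.53 (adjusted p = 0.199, edgeR). IGF2-AS, antisense to IGF2, was at 0.893 ± 0.145 and 1.01 ± 0.287 CPM (log2 fold change 0.19, adjusted p = 0.805, edgeR), and overlaps IGF2 exons on the opposite strand by 333 bases. Near GRB10 only 1 other gene could be tested in that window, with a log2 fold change of 0.08.

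**Figure D5:**
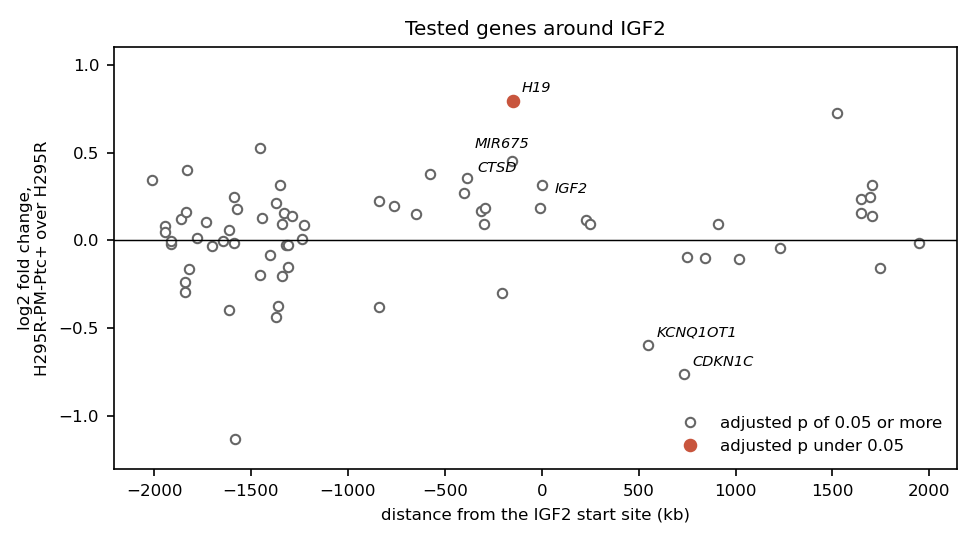
Log2 fold changes (labelled H295R-PM-Ptc+ over H295R) of IGF2 and the 69 tested genes around it against distance from the IGF2 start in kb, with filled points for an adjusted p under 0.05. H19 (0.79) is the only filled point, and the genes around it lie on both sides of 0 with a median of 0.09.

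Across the 6 libraries, the genes whose log2 CPM was most like that of IGF2, among 11550 genes with a mean over 5 CPM, were C6orf47, OPA3 and CIC (Pearson r = 0.992, 0.992 and 0.991). Those most like H19 were ZDHHC18, GRPR and MOSPD1 (0.997, 0.989 and 0.987), and those most like GRB10 were PAM, HDAC9 and KIF17 (0.997 each). With 6 libraries such values are common, as 70, 64 and 186 genes had an r over 0.95 with IGF2, H19 and GRB10. The points share the group difference, the replicate numbers and the library scaling, so these are descriptions with no test.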

How the data were processed

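Stranded libraries of 3 replicates of H295R and 3 of H295R-PM-Ptc+ cells were read in pairs (a mRNA kit in the methods of the study, a total RNA kit with polyA RNA in the labels). The authors aligned reads to hg38 with STAR 2.4.0a and summed fragments over the exons of each gene name (featureCounts, Ensembl annotation), with multiply mapped reads kept at their primary position. The methods of the study name the forward strand option, whereas kits of this kind read the opposite strand first. The strand of the counts was not tested, and the shared bases of IGF2 and the counts of IGF2-AS assume that each gene was counted on its own strand. Raw counts were deposited, between 23264403 and 25813247 per library. The 1 row without a gene name, which holds spike-in sequences, had 0% of counts and was left out.

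Groups and replicate numbers were taken from the labels. The test was that of edgeR 4.0.16 on R 4.3.3 after TMM scaling (filterByExpr, quasi-likelihood F-test, two-sided, group only, Benjamini-Hochberg adjustment over all 16710 genes tested), and the scripts were tested on simulated counts. RPKM used the exon length in the table, and promoters and microRNAs came from RefSeq. Alternatives were DESeq2 1.42.0, limma-voom 3.58.1, relative log expression factors, no filter, at least 10 counts in every library, the replicate number as a block, and leaving out libraries. Leaving out replicate 1 of both groups, and IGF2 over unshared bases, were chosen after seeing the data. Same-numbered replicates pair the groups, as the correlation of their deviations from the means of the groups was 0.497, 0.307 and 0.228 over all genes tested, against -0.352 to 0.150 for different numbers. The study states no pairing.

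The genes and lists were chosen with earlier results of these data known. The text names the 10 genes, the list members with an adjusted p under 0.05, 8 fixed relatives (IGFBP1, IGFBP3, IGFBP6, IGFBP7, IGF1, INS, INS-IGF2 and IRS2), the 3 genes most correlated with each of IGF2, H19 and GRB10, and PTCH1. Markers of cell types are from fixed lists, and the genes that share bases with IGF2 or H19, and others marked as such, were named after their values were seen.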

Additional observations from a re-analysis of the deposited data

How the results depend on the processing

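No log2 fold change of the 9 tested genes, ratio or sum changed its direction under any alternative that was run. Of the adjusted p-values, those of GRB10 stayed under 0.05 and those of INSR and IGFBP5 over it in all 13 alternatives. IGF2 passed with no filter on low counts (0.31, adjusted p = 0.0491, edgeR), as the number of genes called grew to 1111. With the replicate block, the log2 fold changes of IGF2 (0.32), IGF1R (0.26), IGF2R (0.24), IGFBP2 (0.42) and IRS1 (0.21) passed, 7 of the 10 genes and 3758 genes in all were called, and the 4 pathway lists held 10 calls in place of 2. The block changed no other call of the 9 genes. The lists held 5 calls with DESeq2, 6 with no filter and 1 where every library needed at least 10 counts, in which GRB7 was not tested. Over all genes, the calls were 624 in the main fit, 838 with DESeq2 and 479 with at least 10 counts. As shares of all genes tested, the main fit called 3.73%, DESeq2 4.56% and the block 22.5%.

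With libraries left out, singly or as replicate 1 of both groups, the log2 fold changes ranged from 0.24 to 0.43 for IGF2, 0.68 to 0.97 for H19, 0.061 to 0.40 for IGF1R, 0.038 to 0.40 for IGF2R, 0.28 to 0.63 for IGFBP2, 0.13 to 0.29 for IRS1, -0.22 to -0.028 for INSR and 0.20 to 0.44 for IGFBP5. Between 1 and 7 of the 10 genes, 219 and 2013 of all genes and 1 and 9 of the list genes were then called. The highest of these counts came from replicates 2 and 3 alone, where IGF2 (0.43), IGF1R (0.22), IGF2R (0.21), IGFBP2 (0.51) and IRS1 (0.29) passed. H19 lost its call in the fits that left 1 library of replicate 2 or 3 out and kept it without a library of replicate 1, and the lowest count of all genes, 219, came without the library labelled H295R replicate 3. For these calls lost, and for those gained with the block or without replicate 1, the cause was not tested. The differences in the ratios and the summed level kept their direction, and their exact p cannot go below 0.1 with 3 libraries against 3, or 0.25 with 3 pairs. Depth limits H19, IGFBP5 and GRB10, with at most 351 counts in a library, and IGFBP4, which was not detected beyond 4 counts.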
